A study of Mus musculus with 18 samples.

Results

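The comparison described here is RNAi against STAC3 set against a control RNAi in C2C12 cells that had begun to differentiate. Its members are the 4 STAC3 RNAi samples and the 4 control RNAi samples of day 1, 8 of the 15 samples in the series, measured on 10 of its 18 arrays. C2C12 is a mouse myoblast line. All 8 samples were transfected and then spent their last 24 h in differentiation medium with 2% serum, so that RNA was taken 48 h after transfection. STAC3 RNAi cells received a single RNAi against STAC3 and control cells a control RNAi of high GC content, both from the same supplier. Day 0 cells, kept in growth medium with 20% serum and taken 24 h after transfection, were 4 STAC3 RNAi and 3 control samples. Their values are described only where the effect of the RNAi is compared between days. They also entered the main fit, from which standard errors and adjusted p-values come, the detection filter and the choice of each gene's probe. RNA of each sample was hybridised to an Illumina mouse bead array. STAC3 RNAi replicate 1 and control replicate 3 had a second array, which was averaged with the first. Samples were taken from the columns of the authors' log2 value table, since the names of the columns in the companion table of raw intensities disagree with it for 6 of these 10 arrays.

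Myoblasts that leave the cell cycle switch on the transcription factor myogenin, then the acetylcholine receptor, the fusion machinery and the sarcomere, and at the same time shut down replication and mitosis genes. Stac3 encodes an adaptor of the calcium channel complex that couples excitation of the muscle membrane to calcium release, and it is itself a gene of differentiated muscle. Myogenin and MyoD bind E-boxes, short sequences that begin with CA and end with TG, while many mitosis genes carry a cell cycle homology region, TTTGAA, beside CCAAT boxes near their start sites.

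The labels do not say whether the replicates came from separate transfections, and p-values therefore reflect how far these cultures of 1 line varied, which may be technical. No second RNAi against STAC3 was among the samples, so effects of its sequence on other transcripts were not tested. In cultures measured in bulk, fewer cells of a kind and less RNA per cell cannot be told apart. Between 15633 and 16802 of 45281 probes were detected on a day 1 array, and a probe reached detection at a value of 6.85 to 6.89, which is called the detection level here. Differences are log2 fold changes, STAC3 RNAi minus control RNAi, with a standard error (SE) from limma. A gene passed if its adjusted p was below 0.05.

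The 8 samples separated by treatment. The leading principal component of the day 1 samples held 61.7% of the variance, with the STAC3 RNAi samples at 20.0 to 23.7 and the control samples at -26.8 to -18.5. The next component, with 16.5%, set STAC3 RNAi replicate 4 apart at -21.9. Of 18408 probes tested, 3100 were higher and 2990 lower in STAC3 RNAi cells, which is 33.1% of all probes. At the level of genes, each represented by its brightest probe, 2023 of 10146 rose (19.9%) and 1809 fell (17.8%). Counts of list members given below stand against these shares. Changes of at least 2-fold were fewer, with 73 genes up and 123 down. The median over all genes was 0.01 and their quartiles lay at -0.14 and 0.17. In 31.8% of all genes the STAC3 RNAi and control samples did not overlap. A set of 6 arrays carries the same column names in both deposited tables. Within it, STAC3 RNAi replicates 1 and 3 could be set against control replicates 1 and 3, and 914 probes were higher and 1015 lower. All 1929 of these had the same sign in the comparison of all samples, which includes them. With the arrays assigned by the column names of the intensity table, no probe passed in limma and 462 had an unadjusted p below 0.05, against 7681 with the names of the value table. Repeat arrays bear on the choice. By the names of the value table, in its normalized values, each of the 3 in the series had its highest correlation with its partner (r = 0.9949 to 0.9956). By the names of the other table, in its raw log2 intensities, the partner ranked 12, 4 and 17 among the other arrays. The rankings thus differ in the kind of value as well as in the names.

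Stac3 itself was listed at 6.74, 6.74, 6.70 and 6.81 in STAC3 RNAi cells, against 7.53, 7.69, 7.52 and 7.97 in control cells. Every STAC3 RNAi sample lay below the detection level and every control sample above it. The difference of -0.93 (SE 0.08, limma adjusted p = 6.03e-07) is therefore a fall of at least 1.75-fold. An exact permutation test over the 70 ways to split the 8 samples gave a two-sided p of 0.0286, the smallest that 4 against 4 samples allow. Its paralogue Stac2 had 10.19, 10.11, 10.29 and 9.58 in STAC3 RNAi cells, against 9.67, 9.10, 9.59 and 9.09 in control cells. It rose by 0.68 (SE 0.16, limma adjusted p = 0.00322), and STAC3 RNAi replicate 4 lay below the highest control sample.

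**Figure D1:**
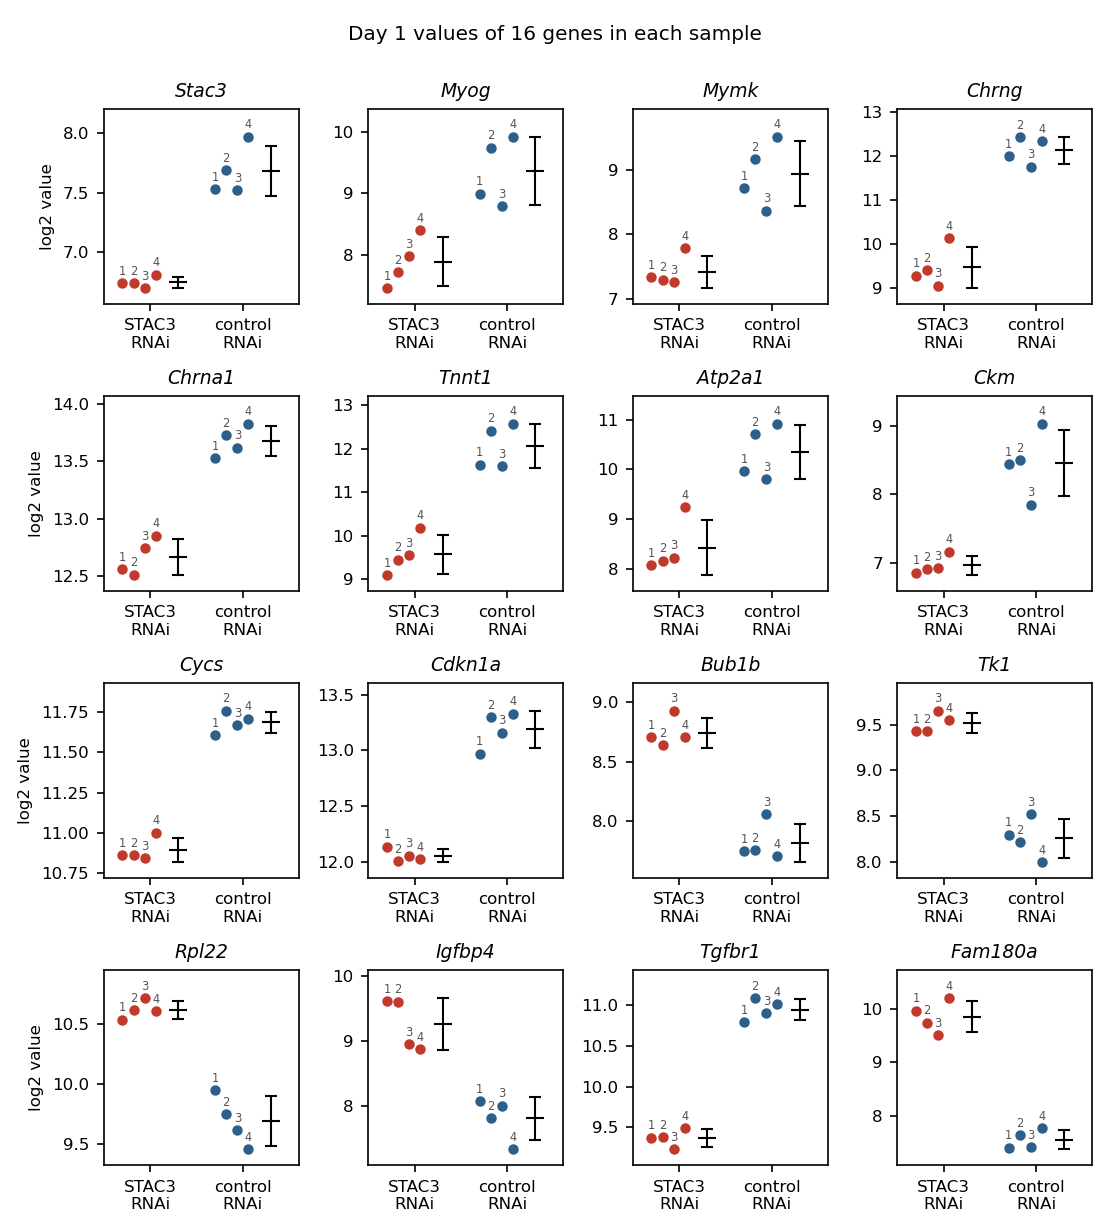
Log2 values of 16 genes in each day 1 sample, with STAC3 RNAi left of control RNAi. Points are samples numbered by replicate, and the bar beside them is the mean with its SD (n = 4 each). The groups do not overlap in any of the 16 genes, and STAC3 RNAi replicate 4 is the highest STAC3 RNAi sample of the 8 muscle genes from Stac3 to Ckm. The 16 genes were picked with earlier results of these data known, some by a rule that requires no overlap. Its absence here is therefore no separate result.

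Promoter sequences of 5 genes on which the results turn are shown here, from RefSeq on GRCm38.p6. Each runs from 250 bases before to 50 bases after the annotated start of the gene. In the promoters of 3 muscle genes that fell the capitals mark E-boxes of the form CANNTG. These are Chrng and Chrna1, which encode subunits of the acetylcholine receptor, and Myog, which encodes myogenin. In those of Cdc20 and Top2a, mitosis genes that rose, the capitals mark TTTGAA on either strand.
Chrng (chr1:87205561-87205860, plus strand): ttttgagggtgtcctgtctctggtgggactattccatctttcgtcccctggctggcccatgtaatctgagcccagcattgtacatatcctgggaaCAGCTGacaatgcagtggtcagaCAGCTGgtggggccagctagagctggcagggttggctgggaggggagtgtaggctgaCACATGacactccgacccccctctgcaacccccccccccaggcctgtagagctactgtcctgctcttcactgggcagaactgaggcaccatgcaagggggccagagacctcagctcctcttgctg
Chrna1 (chr2:73580289-73580588, minus strand): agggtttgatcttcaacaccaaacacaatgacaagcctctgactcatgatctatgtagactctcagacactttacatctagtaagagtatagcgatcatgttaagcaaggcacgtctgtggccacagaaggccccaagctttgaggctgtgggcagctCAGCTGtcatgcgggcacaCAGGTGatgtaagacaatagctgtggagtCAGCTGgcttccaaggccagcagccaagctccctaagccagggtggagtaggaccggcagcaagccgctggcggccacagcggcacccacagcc
Myog (chr1:134289754-134290053, plus strand): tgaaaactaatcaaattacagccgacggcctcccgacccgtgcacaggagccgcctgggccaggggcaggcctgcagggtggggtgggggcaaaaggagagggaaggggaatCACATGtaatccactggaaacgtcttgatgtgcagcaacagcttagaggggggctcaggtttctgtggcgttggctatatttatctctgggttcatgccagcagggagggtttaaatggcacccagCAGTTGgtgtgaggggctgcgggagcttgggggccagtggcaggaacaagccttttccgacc
Cdc20 (chr4:118437294-118437593, minus strand): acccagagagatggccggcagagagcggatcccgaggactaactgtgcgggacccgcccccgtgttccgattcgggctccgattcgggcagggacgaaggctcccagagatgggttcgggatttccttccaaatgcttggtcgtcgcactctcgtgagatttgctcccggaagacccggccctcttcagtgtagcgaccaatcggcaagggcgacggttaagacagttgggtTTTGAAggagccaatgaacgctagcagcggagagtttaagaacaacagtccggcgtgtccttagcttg
Top2a (chr11:99024140-99024439, minus strand): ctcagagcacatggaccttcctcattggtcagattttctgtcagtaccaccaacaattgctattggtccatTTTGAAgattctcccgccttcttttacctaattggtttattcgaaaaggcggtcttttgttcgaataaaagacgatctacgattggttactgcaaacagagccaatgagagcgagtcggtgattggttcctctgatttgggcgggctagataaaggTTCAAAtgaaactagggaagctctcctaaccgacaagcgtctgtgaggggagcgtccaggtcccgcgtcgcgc

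The first bases of the 3 E-boxes of Chrng lie at -155, -132 and -75 relative to its start, and those of Chrna1 at -92, -73 and -44. Myog has E-boxes at -138 and -12. The motif TTTGAA begins at -18 in Cdc20, and in Top2a it occurs at -179 and, on the other strand, at -23. RefSeq promoters were found for 59 of the 83 genes of 9 muscle lists that fell and for 32 of the 38 mitosis genes that rose. A gene with several annotated starts counts once for each of its promoters. The E-box CAGCTG, which reads the same on both strands, stood in 32.9% of 76 promoters of the fallen muscle genes, in 15.6% of 10553 promoters of all tested genes and in 16.3% of all 32851 promoters in the table. Of the wider form CANNTG, which includes CAGCTG, these shares were 75%, 63.9% and 72.3%. TTTGAA on either strand stood in 71.1% of 38 promoters of the risen mitosis genes, in 11.7% of those of all tested genes and in 17.9% of all promoters in the table. ATTGG on either strand, the core of the CCAAT box, stood in 76.3%, 37.4% and 37.4%. Unchanged members of the same lists were not counted apart. The shares may therefore belong to these classes of genes and say nothing on the response to the RNAi. A match is a description of the letters, and binding was not measured.

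Among the regulators of myogenesis, myogenin changed most, and the other members that passed moved in both directions by less. Of 24 tested transcription factors and cofactors 7 fell and 5 rose (29.2% and 20.8%, against 17.8% and 19.9% of all genes). Their median was -0.05. Myog had 7.46, 7.71, 7.98 and 8.40 in STAC3 RNAi cells, against 8.99, 9.74, 8.79 and 9.92 in control cells, a difference of -1.47 (SE 0.24, limma adjusted p = 0.000229). The groups did not overlap, but STAC3 RNAi replicate 4 came within 0.39 of the lowest control sample. Myod1, the determination factor that acts before myogenin, had 8.19, 8.33, 8.55 and 8.79 in STAC3 RNAi cells, against 8.67, 9.12, 8.57 and 9.0 in control cells. Its fall of 0.38 (SE 0.12, limma adjusted p = 0.0291) was smaller, and the groups overlapped. Without STAC3 RNAi replicate 1 or 2 or control replicate 2 or 4 the difference was -0.33 to -0.28 and did not pass (limma adjusted p = 0.0841 to 0.0999), and without STAC3 RNAi replicate 2 or control replicate 2 only 4 of the 24 genes fell. Smarcd3, a chromatin remodelling subunit that works with MyoD, fell by 0.66 (SE 0.09, limma adjusted p = 3.94e-05). Tead4, a partner of the YAP coactivator that is induced in differentiating myoblasts, fell by 0.49 (SE 0.09, limma adjusted p = 0.000449). Its relative Tead1 rose by 0.40 (SE 0.10, limma adjusted p = 0.0083). Nfix, a factor of the fetal muscle programme, rose by 0.76 (SE 0.14, limma adjusted p = 0.000461), and Srf, which drives actin genes, by 0.63 (SE 0.10, limma adjusted p = 0.000118). Mef2c and Mef2d, which cooperate with myogenin, differed by -0.01 and -0.07 and did not pass (SE 0.07 and 0.05, limma adjusted p = 0.918 and 0.368). Myf6 was below detection in every STAC3 RNAi sample and fell at least 1.13-fold (limma adjusted p = 0.00406). Myf5, Mef2a and Myh3 had no tested probe.

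The 4 tested subunits of the muscle acetylcholine receptor fell, and the fetal one fell most. Chrng, the gamma subunit of the receptor before innervation, had 9.27, 9.40, 9.05 and 10.12 in STAC3 RNAi cells, against 11.99, 12.42, 11.75 and 12.33 in control cells. The gap between the groups was 1.63 at its narrowest, for a difference of -2.66 (SE 0.26, limma adjusted p = 2.17e-06) or 6.34-fold. Chrnd, the delta subunit, had 7.84, 7.46, 7.22 and 7.37 in STAC3 RNAi cells, against 8.96, 8.82, 8.66 and 8.72 in control cells, a difference of -1.32 (SE 0.10, limma adjusted p = 1.97e-07). Chrna1, the alpha subunit, had 12.56, 12.51, 12.74 and 12.85 in STAC3 RNAi cells, against 13.53, 13.73, 13.62 and 13.83 in control cells, and fell by 1.01 (SE 0.09, limma adjusted p = 6.07e-07). Neither of these 2 genes overlapped between groups. Chrnb1, the beta subunit, fell by 0.27 (SE 0.10, limma adjusted p = 0.0441) with overlapping groups, and with STAC3 RNAi replicate 1, 2 or 3 or control replicate 2, 3 or 4 left out it differed by -0.27 to -0.17 and did not pass (limma adjusted p = 0.0729 to 0.151). Over the 15 tested genes of the neuromuscular junction, these subunits among them, 26.7% fell and 13.3% rose, against 17.8% and 19.9% of all genes. Of the 11 other tested genes of the neuromuscular junction 2 rose. Agrn, the nerve and muscle signal that clusters receptors, rose by 0.49 (SE 0.09, limma adjusted p = 0.000395), and Etv5, a factor of synaptic nuclei, by 0.34 (SE 0.05, limma adjusted p = 0.000164) with 3 of 4 control samples below detection. The other 9 did not pass.

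Most of the tested genes of the sarcomere and of structures around it fell. In 3 lists, which beside sarcomere genes hold costamere, chaperone and nuclear lamina genes, 37 of 60 tested members fell and 4 rose. Of all genes 17.8% fell and 19.9% rose. Thick filament genes had a median of -0.84 (5 of 9 fell, none rose), thin filament genes of -0.88 (13 of 18 fell, 1 rose) and genes of the Z-disc, titin and costameres of -0.36 (19 of 33 fell, and 3 rose or 5 without STAC3 RNAi replicate 4). Tnnt1, slow troponin T, had 9.10, 9.45, 9.55 and 10.19 in STAC3 RNAi cells, against 11.64, 12.42, 11.61 and 12.58 in control cells. The groups did not overlap, with a difference of -2.49 (SE 0.34, limma adjusted p = 4.35e-05). Mylpf, the fast myosin regulatory light chain, differed by -2.43 (SE 0.50, limma adjusted p = 0.00151) and Tnnc2, fast troponin C, by -2.20 (SE 0.36, limma adjusted p = 0.000233). Actn3, the Z-disc actinin of fast fibres, had 8.84, 8.79, 9.16 and 8.91 in STAC3 RNAi cells, against 10.92, 11.15, 10.64 and 11.11 in control cells. Its difference of -2.03 (SE 0.12, limma adjusted p = 2.59e-08) separated the groups, with the 4 STAC3 RNAi samples within 0.37 of each other. Genes that build and maintain the sarcomere were also lower. Unc45b, the myosin chaperone, fell by 1.35 (SE 0.18, limma adjusted p = 4.1e-05), Klhl41, which stabilises the thin filament, by 1.63 (SE 0.23, limma adjusted p = 7.33e-05) and Csrp3, a Z-disc LIM protein, by 1.26 (SE 0.14, limma adjusted p = 4.55e-06), the last with 3 of 4 STAC3 RNAi samples below detection. Des, the intermediate filament desmin that myoblasts already make, fell by 0.40 (SE 0.07, limma adjusted p = 0.000371). The 4 rises included Palld, an actin-binding protein, at 0.68 (SE 0.15, limma adjusted p = 0.00194), Pdlim7, a PDZ and LIM protein, at 0.58 (SE 0.07, limma adjusted p = 2.39e-05) and Fhl1, a LIM-only protein, at 0.42 (SE 0.12, limma adjusted p = 0.0155). The remaining rise, that of Tpm3 by 0.24 (limma adjusted p = 0.0241), is uncertain, since its 4 other probes have the opposite sign, and without STAC3 RNAi replicate 1 or 4 or control replicate 4 it was 0.18 to 0.21 and did not pass (limma adjusted p = 0.0607 to 0.0847).

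The replicates differed in how low the genes of these lists were. The mean value of the 60 sarcomere and associated genes was 8.44, 8.50, 8.54 and 8.86 in STAC3 RNAi replicates 1 to 4, against 9.09, 9.28, 9.02 and 9.44 in control replicates 1 to 4. No STAC3 RNAi sample reached the lowest control sample, and replicate 4 was the highest of its group in both. Among the 37 of these genes that fell, STAC3 RNAi replicate 4 was the highest STAC3 RNAi sample for 27.

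**Figure D2:**
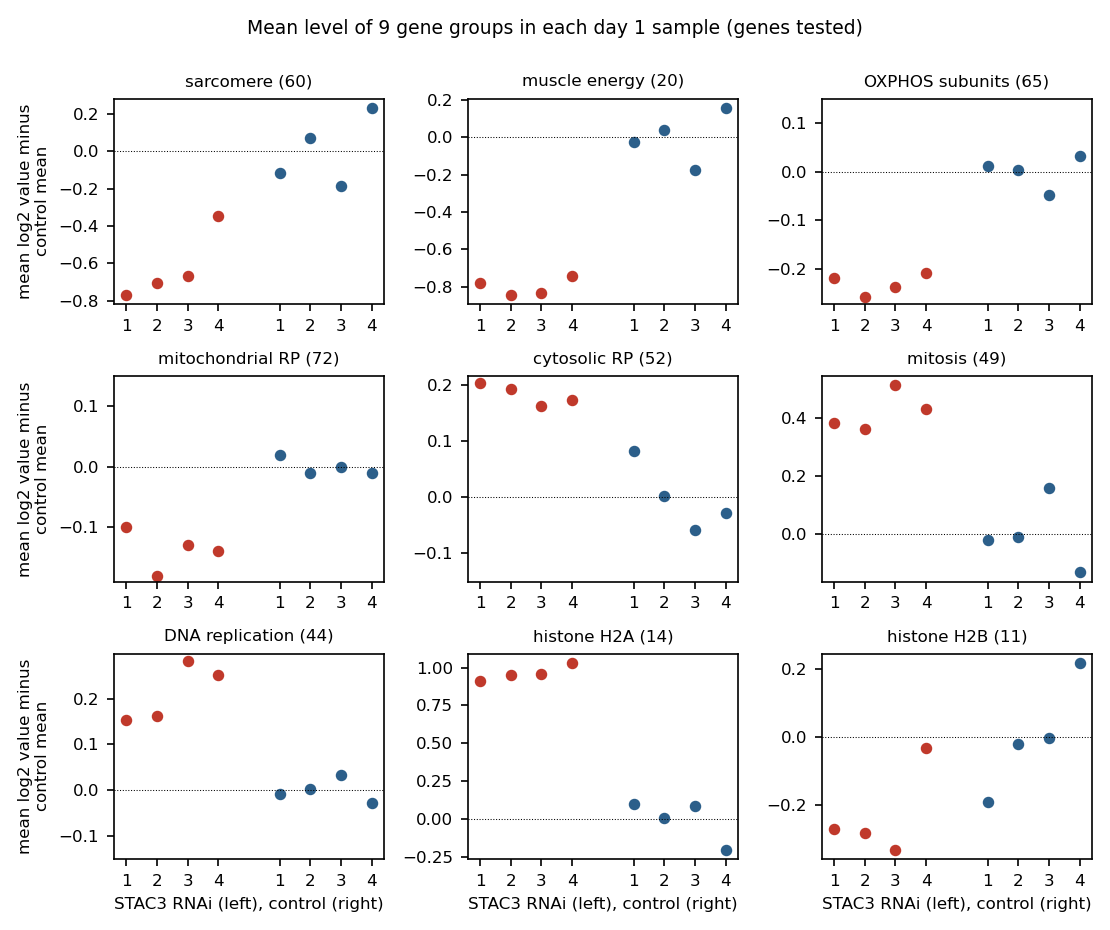
Mean log2 value of the tested genes of 9 groups in each day 1 sample, as a difference from the mean of the 4 control samples. STAC3 RNAi samples stand left of control samples, each numbered by replicate, and every panel has its own scale. The panel named sarcomere also holds costamere, chaperone and nuclear lamina genes. The groups do not overlap except in histone H2B, where STAC3 RNAi replicate 4 lies above control replicate 1.

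Of 25 tested genes of the calcium store, its buffers and calcium signalling 10 fell, 2 rose and 13 did not pass. Pvalb, the cytosolic calcium buffer parvalbumin, had 6.78, 6.80, 6.78 and 7.42 in STAC3 RNAi cells, against 10.36, 11.06, 9.91 and 11.83 in control cells. It fell by 3.85 (SE 0.30, limma adjusted p = 2.12e-07), and since 3 of the 4 STAC3 RNAi samples were below detection this is not an exact fold. Atp2a1, the calcium pump of fast muscle, had 8.07, 8.16, 8.22 and 9.24 in STAC3 RNAi cells, against 9.96, 10.71, 9.80 and 10.92 in control cells, a difference of -1.93 (SE 0.30, limma adjusted p = 0.000131). STAC3 RNAi replicate 4 stood above the other 3 but below all controls. Srl, a luminal calcium-binding protein, fell by 1.56 (SE 0.19, limma adjusted p = 1.69e-05), and Hrc, its histidine-rich partner in the store, by 1.42 (SE 0.12, limma adjusted p = 4.92e-07). Rcan2, an inhibitor of the calcium-activated phosphatase calcineurin, rose by 1.01 (SE 0.08, limma adjusted p = 2.68e-07), and Ppp3ca, a catalytic subunit of calcineurin, by 0.37 (SE 0.09, limma adjusted p = 0.00611).

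In the channel complex that couples excitation to calcium release, 8 of 17 tested genes fell and 5 rose. Tmem38a, a counter-ion channel of the store, had 7.52, 7.63, 7.53 and 7.49 in STAC3 RNAi cells, against 8.89, 9.15, 8.84 and 9.80 in control cells. The groups did not overlap and the fall was by 1.63 (SE 0.15, limma adjusted p = 1.03e-06). Ryr1, the calcium release channel, fell by 0.76 (SE 0.15, limma adjusted p = 0.00122), and Cacng1, the gamma subunit of the muscle voltage sensor, by 0.74 (SE 0.10, limma adjusted p = 4.8e-05). Mtmr14, a lipid phosphatase of this membrane system, rose by 0.59 (SE 0.08, limma adjusted p = 3.98e-05). Of 9 other membrane channels and pumps 4 fell and none rose, led by Atp1b1, a subunit of the sodium pump, at -1.61 (SE 0.12, limma adjusted p = 1.43e-07).

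Fusion and adhesion genes were split. Of 24 tested 8 fell and 4 rose (33.3% and 16.7%, against 17.8% and 19.9% of all genes), with a median of -0.11. Mymk, the membrane protein that starts myoblast fusion, had 7.33, 7.29, 7.25 and 7.78 in STAC3 RNAi cells, against 8.71, 9.16, 8.36 and 9.51 in control cells. The groups did not overlap, with a difference of -1.53 (SE 0.19, limma adjusted p = 2.14e-05). Ncam1, an adhesion molecule of fusing myoblasts, fell by 1.45 (SE 0.21, limma adjusted p = 8.91e-05) and Jam2, a junction protein that is known from zebrafish to act in fusion, by 1.14 (SE 0.09, limma adjusted p = 1.9e-07). Cdh15, the muscle cadherin, fell by 0.86 (SE 0.15, limma adjusted p = 0.000305). Neo1, a netrin receptor that promotes myogenic differentiation, rose by 0.47 (SE 0.08, limma adjusted p = 0.000494), and Rac1, a GTPase of the actin cytoskeleton, by 0.43 (SE 0.08, limma adjusted p = 0.000989). The gap junction gene Gja1 rose by 1.66 (SE 0.18, limma adjusted p = 5.61e-06).

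Over 9 muscle lists together, which take in the sarcomere, calcium, coupling, membrane, junction, fusion and muscle energy genes, 83 of 168 tested genes fell and 17 rose. In 68 of the 83 that fell no STAC3 RNAi sample reached the lowest control sample, which also held for 76.8% of all 1809 fallen genes. The median of the 168 genes was -0.20, against 0.01 for all genes.

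**Figure D3:**
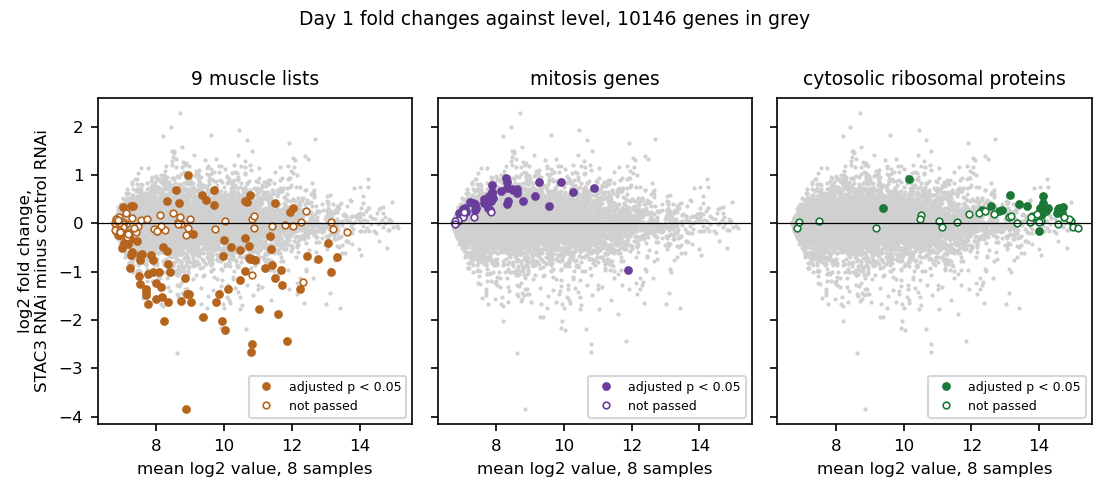
Log2 fold change at day 1 (STAC3 RNAi minus control RNAi, vertical axis) against the mean log2 value over the 8 samples (horizontal axis). Grey points are all 10146 genes, filled coloured points are list members with an adjusted p below 0.05 and open ones those that did not pass. Fallen muscle genes reach -3.85, mitosis genes lie above 0 except Kif23 at -0.97 and a few near 0, and the risen ribosomal protein genes lie mostly among the brightest genes.

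Genes of energy metabolism fell more often than they rose, both in muscle isoforms and in general enzymes. Of 20 tested muscle isoforms 13 fell and none rose, with a median of -0.74. Mb, which encodes myoglobin, had 7.04, 7.13, 6.96 and 7.72 in STAC3 RNAi cells, against 8.87, 9.35, 8.57 and 10.13 in control cells, a difference of -2.02 (SE 0.28, limma adjusted p = 5.12e-05). Ckm, muscle creatine kinase, had 6.86, 6.91, 6.93 and 7.17 in STAC3 RNAi cells, against 8.44, 8.50, 7.85 and 9.03 in control cells, and fell by 1.49 (SE 0.16, limma adjusted p = 5.5e-06). STAC3 RNAi replicate 1 lay below the detection level and replicates 2 and 3 close above it, so this is not an exact fold. In Mb, STAC3 RNAi replicates 1 to 3 lay not far above the detection level, so its fold is not exact either. The groups of both genes did not overlap. Adssl1, the muscle enzyme of the purine nucleotide cycle, fell by 1.77 (SE 0.16, limma adjusted p = 8.2e-07), and Pgam2, the muscle phosphoglycerate mutase, by 1.66 (SE 0.21, limma adjusted p = 1.93e-05) with 3 of 4 STAC3 RNAi samples below detection. A further list of 25 genes covers general glycolysis and glucose uptake and also the response to low oxygen. In it 16 fell and 2 rose, or 1 without STAC3 RNAi replicate 1, with a median of -0.41. Slc2a1, the basal glucose carrier, had 11.63, 11.36, 11.29 and 10.68 in STAC3 RNAi cells, against 12.40, 12.94, 12.66 and 12.43 in control cells, a difference of -1.37 (SE 0.17, limma adjusted p = 2.3e-05). Here STAC3 RNAi replicate 4 was the lowest sample. Gapdh, often used as a reference gene, fell by 0.38 (SE 0.06, limma adjusted p = 0.000219), whereas 3 other such genes did not pass: Actb at 0.13 (SE 0.08, limma adjusted p = 0.276), Tbp at 0.08 (SE 0.05, limma adjusted p = 0.271) and Hprt at 0.06 (SE 0.10, limma adjusted p = 0.695).

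Many mitochondrial genes fell, most of them by small amounts. Of 65 tested subunits of oxidative phosphorylation 35 fell and 2 rose, or 1 rose with any of STAC3 RNAi replicates 1 to 3 or control replicates 2 and 3 left out, with a median of -0.22. By complex, 18 of 33 genes of complex I fell, 2 of 8 of complex III, 7 of 9 of complex IV and 7 of 14 of the ATP synthase. The mean over the 65 genes was 11.20, 11.16, 11.18 and 11.21 in STAC3 RNAi cells, against 11.43, 11.42, 11.37 and 11.45 in control cells, so the groups did not overlap. Cycs, the electron carrier cytochrome c, had 10.86, 10.86, 10.84 and 11.00 in STAC3 RNAi cells, against 11.61, 11.76, 11.67 and 11.71 in control cells. The difference of -0.80 had an SE of 0.05 (limma adjusted p = 3.52e-08), and each group spanned 0.17 or less. Atp5pb, of the stalk of the ATP synthase, fell by 0.81 (SE 0.09, limma adjusted p = 3.87e-06). Uqcr10, a small subunit of complex III, rose by 0.61 (SE 0.11, limma adjusted p = 0.000401). Of 27 genes of the citric acid cycle and of pyruvate entry 11 fell and 3 rose, or 1 without control replicate 2. Pdhb, of pyruvate dehydrogenase, fell by 0.86 (SE 0.08, limma adjusted p = 2.06e-06). Fatty acid oxidation showed no common direction, with 7 of 24 genes down and 5 up (29.2% and 20.8%, against 17.8% and 19.9% of all genes). Without STAC3 RNAi replicate 1, 2 or 4 or control replicate 1 or 3, 3 were up. Acot1, a thioesterase of fatty acyl-CoA, had 9.50, 9.62, 9.23 and 9.80 in STAC3 RNAi cells, against 8.14, 8.0, 7.72 and 7.99 in control cells, and rose by 1.57 (SE 0.12, limma adjusted p = 1.54e-07).

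Genes of the mitochondrial ribosome fell more often than they rose, and those of the cytosolic ribosome rose more often than they fell. Of 72 mitochondrial ribosomal protein genes 26 fell and 6 rose, with a median of -0.12. Mrps24, of the small mitochondrial subunit, had 10.72, 10.41, 10.66 and 10.62 in STAC3 RNAi cells, against 12.34, 12.13, 12.19 and 12.07 in control cells. At -1.58 (SE 0.08, limma adjusted p = 6.58e-09) it was the largest fall of the list, followed by Mrpl53 at -0.69 (SE 0.08, limma adjusted p = 1.52e-05). Of 52 cytosolic ribosomal protein genes 21 rose and 1 fell, or none with any sample but STAC3 RNAi replicate 2 or control replicate 4 left out, with a median of 0.18. The large subunit had 11 risen of 32 tested and the small subunit 10 of 20. Rpl22, of the large subunit, had 10.54, 10.62, 10.72 and 10.61 in STAC3 RNAi cells, against 9.95, 9.75, 9.62 and 9.46 in control cells, and rose by 0.93 (SE 0.10, limma adjusted p = 6.92e-06). Rps6, a target of growth signalling through S6 kinase, rose by 0.58 (SE 0.07, limma adjusted p = 2.46e-05). Most of these genes lie high on the array scale, and the rises were small beside those of single genes.

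Most mitosis genes rose, and p21, the main cell cycle inhibitor of differentiating myoblasts, fell. Of 49 tested mitosis genes 38 rose and 1 fell, with a median of 0.45. Bub1b, a checkpoint kinase of the kinetochore, had 8.71, 8.64, 8.93 and 8.71 in STAC3 RNAi cells, against 7.75, 7.76, 8.06 and 7.71 in control cells, a difference of 0.93 (SE 0.08, limma adjusted p = 5.42e-07). Cdc20, the activator of anaphase whose promoter is shown above, had 9.67, 9.75, 9.47 and 9.89 in STAC3 RNAi cells, against 8.74, 8.91, 9.20 and 8.50 in control cells. It rose by 0.86 (SE 0.12, limma adjusted p = 7.73e-05) without overlap, the nearest control sample being replicate 3. Top2a, the topoisomerase that untangles chromosomes, rose by 0.85 (SE 0.16, limma adjusted p = 0.000704), and Anln, of the contractile ring, by 0.86 (SE 0.14, limma adjusted p = 0.000199). The single fall, Kif23 at -0.97, is uncertain because its 2 other probes have the opposite sign. Foxm1, a factor that drives mitosis genes, rose by 0.62 (SE 0.10, limma adjusted p = 0.000136).

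Replication genes rose less widely. Of 44 tested 17 rose and none fell, or 1 without STAC3 RNAi replicate 4, with a median of 0.21. Tk1, the thymidine kinase of S phase, had 9.43, 9.43, 9.65 and 9.55 in STAC3 RNAi cells, against 8.30, 8.22, 8.52 and 8.0 in control cells, and rose by 1.26 (SE 0.10, limma adjusted p = 3.67e-07). Of the 6 subunits of the replicative helicase 4 rose, led by Mcm5 at 0.94 (SE 0.10, limma adjusted p = 4.75e-06) and Mcm6 at 0.66 (SE 0.10, limma adjusted p = 0.000136). E2f1, the factor of S phase entry, did not pass with -0.14 (SE 0.06, limma adjusted p = 0.0965), except without control replicate 4 (-0.19, limma adjusted p = 0.034). E2f2 fell by 0.62 (SE 0.12, limma adjusted p = 0.00114). Tfdp1, their dimer partner, had 9.69, 9.77, 9.93 and 9.68 in STAC3 RNAi cells, against 8.68, 8.81, 8.80 and 8.60 in control cells, and rose by 1.04 (SE 0.08, limma adjusted p = 3.11e-07). Of the inhibitors of the cycle, Cdkn1a, the p21 gene, had 12.14, 12.01, 12.06 and 12.03 in STAC3 RNAi cells, against 12.97, 13.30, 13.16 and 13.33 in control cells. It fell by 1.13 (SE 0.08, limma adjusted p = 9.99e-08) with each group within 0.36. Cdkn1b and Cdkn1c, the other members of its family, differed by -0.08 and -0.61 and did not pass (SE 0.06 and 0.27, limma adjusted p = 0.413 and 0.0929). Cdkn1c passed without STAC3 RNAi replicate 4 (-0.81, limma adjusted p = 0.0275) or control replicate 3 (-0.87, limma adjusted p = 0.0126), and was -0.35 without control replicate 4. Rb1, the retinoblastoma gene that holds E2F in check, fell by 0.53 (SE 0.16, limma adjusted p = 0.0214) with overlapping groups, and without STAC3 RNAi replicate 1, 2 or 3 or control replicate 2 or 4 it differed by -0.50 to -0.42 and did not pass (limma adjusted p = 0.0542 to 0.0764). Ccnd2 fell by 0.75 (SE 0.14, limma adjusted p = 0.000681), while the D-type cyclins Ccnd1 and Ccnd3 differed by 0.11 and -0.12 and did not pass (SE 0.14 and 0.10, limma adjusted p = 0.613 and 0.435). Without STAC3 RNAi replicate 4, Ccnd3 passed at -0.23 (limma adjusted p = 0.0449), and 7 in place of 4 of the 20 tested cyclins, Cdks and Cdk inhibitors fell.

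Histone genes split by class. Of 47 replication-dependent histone genes 24 rose and 6 fell. Of 14 H2A genes 13 rose, with a median of 1.19, and of 11 H2B genes 6 fell and 1 rose, with a median of -0.32. Of 12 H4 genes 7 rose and of 9 H3 genes 3, with none falling in either class. The split by class was made after the values had been seen. H2ac10 had 12.90, 13.09, 13.09 and 13.32 in STAC3 RNAi cells, against 11.82, 11.73, 11.92 and 11.34 in control cells, and rose by 1.40 (SE 0.12, limma adjusted p = 3.67e-07). Genes within a class are nearly identical in sequence and their probes may read each other, so these are not independent measurements. H2ax, the H2A variant of DNA damage signalling, rose by 1.49 (SE 0.10, limma adjusted p = 5.61e-08).

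**Figure D4:**
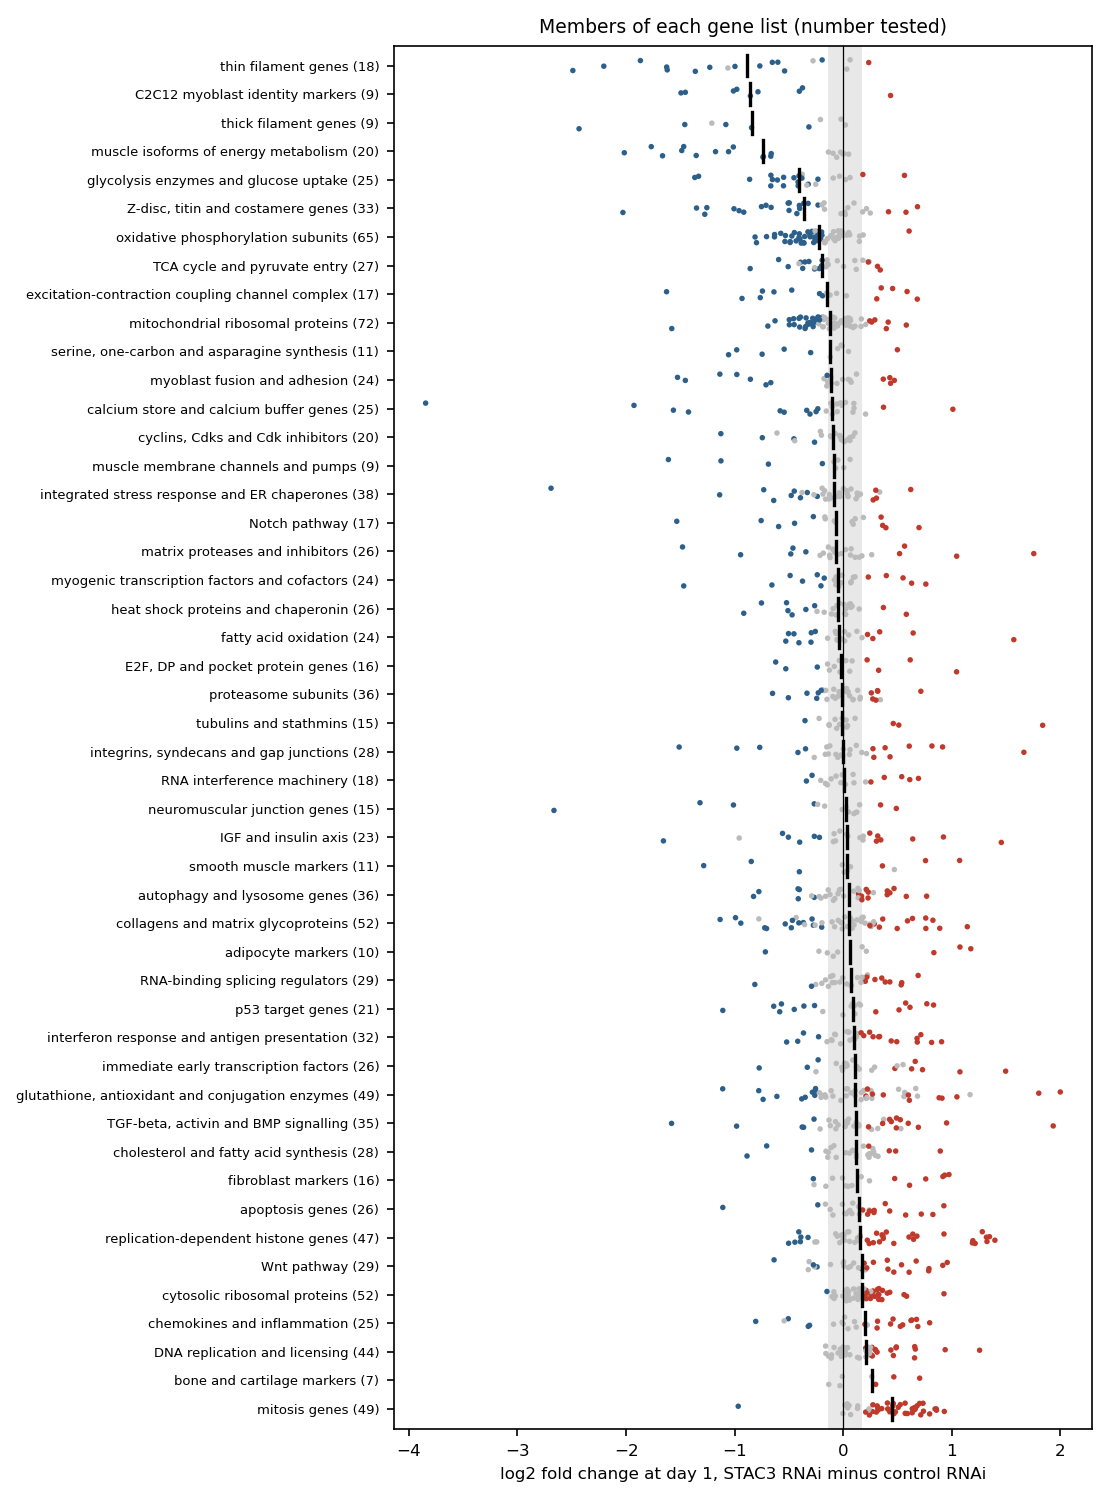
Log2 fold change at day 1 (STAC3 RNAi minus control RNAi) of each tested member of the 48 gene lists with at least 7 tested members, ordered by median. Red points rose and blue points fell with an adjusted p below 0.05, grey points did not pass, black bars are medians and the grey band lies between the quartiles of all 10146 genes. Medians run from -0.88 in thin filament genes to 0.45 in mitosis genes.

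Growth factor genes changed in both directions. Of 23 genes of the IGF axis, which drives both growth and differentiation of myoblasts, 7 rose and 6 fell (30.4% and 26.1%). The shares over all genes were 19.9% and 17.8%. With STAC3 RNAi replicate 4 or control replicate 3 left out, 4 of the 23 rose. The binding proteins were split. Igfbp2 had 11.73, 11.42, 11.50 and 11.49 in STAC3 RNAi cells, against 13.35, 13.00, 13.22 and 13.19 in control cells, a difference of -1.66 (SE 0.10, limma adjusted p = 3.4e-08). Igfbp4 had 9.61, 9.60, 8.95 and 8.87 in STAC3 RNAi cells, against 8.07, 7.81, 8.0 and 7.33 in control cells, a difference of 1.46 (SE 0.20, limma adjusted p = 3.78e-05). Neither gene overlapped between groups. Igfbp5, among the brightest genes of these cells, fell by 0.51 (SE 0.07, limma adjusted p = 5.66e-05). The receptor gene Igf1r rose by 0.92 (SE 0.07, limma adjusted p = 1.96e-07), and Pik3r1, the regulatory subunit of PI3 kinase below it, by 0.64 (SE 0.13, limma adjusted p = 0.00126).

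In the TGF-beta, activin and BMP pathways 11 of 35 genes rose and 5 fell, with 3 falling when STAC3 RNAi replicate 3 or control replicate 2 or 3 was left out. Tgfbr1, the signalling receptor for TGF-beta, had 9.37, 9.38, 9.23 and 9.49 in STAC3 RNAi cells, against 10.79, 11.09, 10.90 and 11.01 in control cells. The groups did not overlap, with a difference of -1.58 (SE 0.07, limma adjusted p = 1.35e-09). Fst, the activin and myostatin antagonist follistatin, fell by 0.98 (SE 0.24, limma adjusted p = 0.00463) with 3 of 4 STAC3 RNAi samples below detection, while its relative Fstl1 rose by 1.93 (SE 0.16, limma adjusted p = 3.67e-07). Ltbp4 and Ltbp3, which anchor latent TGF-beta in the matrix, rose by 0.95 (SE 0.09, limma adjusted p = 1.57e-06) and 0.60 (SE 0.09, limma adjusted p = 7.19e-05). Id3, a repressor of MyoD that BMP signals induce, rose by 0.69 (SE 0.15, limma adjusted p = 0.00194).

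Of 17 tested Notch pathway genes 5 fell and 4 rose (29.4% and 23.5%, against 17.8% and 19.9% of all genes). With any of STAC3 RNAi replicates 1, 2 and 3 and control replicates 2 and 4 left out, 3 fell. Hes6, a member of the Hes family that promotes myogenesis, had 9.50, 9.50, 9.69 and 10.15 in STAC3 RNAi cells, against 10.70, 11.72, 10.85 and 11.70 in control cells, and fell by 1.53 (SE 0.22, limma adjusted p = 6.77e-05). The classical targets Heyl and Hes1 fell by 0.59 (SE 0.06, limma adjusted p = 3.46e-06) and 0.45 (SE 0.09, limma adjusted p = 0.00161), Heyl with 3 of 4 STAC3 RNAi samples below detection. Hey1 fell by 0.76 (SE 0.26, limma adjusted p = 0.036) with overlapping groups, and with any 1 of those samples left out it differed by -0.79 to -0.56 and did not pass (limma adjusted p = 0.0517 to 0.118). Among 29 Wnt pathway genes 14 rose and 3 fell, or 1 fell without STAC3 RNAi replicate 2 or 3 or control replicate 3 or 4. Wnt10a, a ligand, rose by 0.96 (SE 0.15, limma adjusted p = 0.000169), Fzd2, a receptor, by 0.79 (SE 0.11, limma adjusted p = 3.85e-05), Sfrp1, a secreted antagonist, by 0.79 (SE 0.11, limma adjusted p = 6.28e-05) and Tcf7l1, a nuclear repressor of the pathway, by 0.92 (SE 0.19, limma adjusted p = 0.00134). The members thus include activators and inhibitors.

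Of 26 immediate early genes 6 rose and 3 fell (23.1% and 11.5%, against 19.9% and 17.8% of all genes). With STAC3 RNAi replicate 4 left out, 12 rose. Egr2 had 9.26, 9.32, 8.97 and 9.52 in STAC3 RNAi cells, against 7.84, 7.76, 7.86 and 7.62 in control cells, and rose by 1.50 (SE 0.11, limma adjusted p = 9.17e-08). Its relatives Egr1 and Egr3 rose by 1.08 (SE 0.11, limma adjusted p = 2.1e-06) and 0.73 (SE 0.12, limma adjusted p = 0.000291). These are zinc finger factors that growth factors switch on. Dusp1, a phosphatase that switches MAP kinases off, fell by 0.77 (SE 0.11, limma adjusted p = 8.39e-05).

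Innate immune genes rose more often than they fell, in small steps. Of 32 interferon and antigen presentation genes 13 rose and 4 fell, with a median of 0.10. Of 25 chemokine and inflammation genes 12 rose and 4 fell, or 2 fell without STAC3 RNAi replicate 3, with a median of 0.20. Irf1, an interferon response factor, had 10.69, 10.89, 10.77 and 11.12 in STAC3 RNAi cells, against 9.88, 10.04, 10.07 and 9.86 in control cells, and rose by 0.91 (SE 0.09, limma adjusted p = 1.27e-06). Gbp2, an interferon-induced GTPase, rose by 0.81 (SE 0.08, limma adjusted p = 2.95e-06), and Psmb10, a subunit of the immunoproteasome, by 0.72 (SE 0.08, limma adjusted p = 4.64e-06). Eif2ak2, the sensor of double-stranded RNA, fell by 0.42 (SE 0.07, limma adjusted p = 0.000206). Of the chemokines, Cx3cl1 rose by 0.80 (SE 0.11, limma adjusted p = 6.02e-05) and Ccl2 fell by 0.81 (SE 0.17, limma adjusted p = 0.00155). The groups overlapped in Ccl2. In the RNA interference machinery 5 of 18 genes rose and 2 fell (27.8% and 11.1%, against 19.9% and 17.8% of all genes). Without control replicate 4, 1 fell.

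Fgf21, a hormone that muscle makes under mitochondrial and amino acid stress, had 7.27, 7.26, 7.15 and 7.42 in STAC3 RNAi cells, against 9.88, 10.02, 9.78 and 10.20 in control cells. At -2.69 (SE 0.10, limma adjusted p = 3.89e-10) the fall was 6.46-fold by these values, with each group within 0.42. The STAC3 RNAi samples lay not far above the detection level, where fold changes are compressed, so this is not an exact fold. Of 38 genes of the integrated stress response and ER chaperones 9 fell and 4 rose, a share of falls near that of all genes, with a median of -0.08. Of 11 genes of serine, one-carbon and asparagine synthesis 5 fell and 1 rose. Psat1, of serine synthesis, fell by 0.98 (SE 0.11, limma adjusted p = 5.32e-06) and Asns, asparagine synthetase, by 0.54 (SE 0.08, limma adjusted p = 7.16e-05). Of 26 apoptosis genes 11 rose and 2 fell, with 7 rising without control replicate 4 and 1 falling without STAC3 RNAi replicate 1, 2 or 4 or control replicate 2 or 4, and they include both promoters and inhibitors of cell death. Bok, a proapoptotic member of the Bcl-2 family, rose by 0.83 (SE 0.16, limma adjusted p = 0.000893), and Pmaip1, another such gene, fell by 1.11 (SE 0.09, limma adjusted p = 2.37e-07).

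The matrix and its proteases changed gene by gene. Of 52 collagens and matrix glycoproteins 13 fell and 12 rose. Fn1, fibronectin, had 11.59, 11.76, 11.93 and 11.43 in STAC3 RNAi cells, against 12.69, 13.00, 12.74 and 12.81 in control cells, and fell by 1.13 (SE 0.13, limma adjusted p = 9.36e-06). Mfap2, of elastic microfibrils, rose by 1.14 (SE 0.09, limma adjusted p = 2.66e-07) with control replicate 4 below detection. The inhibitors of metalloproteases split. Timp2 had 13.38, 13.64, 13.80 and 13.45 in STAC3 RNAi cells, against 11.90, 11.91, 11.85 and 11.59 in control cells, and rose by 1.75 (SE 0.09, limma adjusted p = 8.72e-09). Timp1 fell by 0.94 (SE 0.13, limma adjusted p = 4.77e-05). Mmp2, the gelatinase that Timp2 helps to activate, rose by 1.04 (SE 0.18, limma adjusted p = 0.000409), and Plau, urokinase, fell by 1.48 (SE 0.15, limma adjusted p = 2.95e-06). Zyx, of focal adhesions, rose by 0.91 (SE 0.10, limma adjusted p = 8.21e-06), and Itgb4, an integrin chain of hemidesmosomes, fell by 1.51 (SE 0.14, limma adjusted p = 8.02e-07).

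The largest rises were not muscle genes. Fam180a had 9.96, 9.74, 9.51 and 10.20 in STAC3 RNAi cells, against 7.41, 7.64, 7.42 and 7.77 in control cells, which at 2.29 (SE 0.12, limma adjusted p = 6.29e-09) was the largest rise of all genes. Ugt1a10, which conjugates small molecules with glucuronic acid, rose by 2.00 (SE 0.29, limma adjusted p = 8.26e-05). It had 10.02, 10.13, 9.26 and 8.29 in STAC3 RNAi cells, against 7.68, 7.18, 7.70 and 7.15 in control cells, so that STAC3 RNAi replicates 3 and 4 lay below replicates 1 and 2. Mgst1, a membrane glutathione transferase, had 9.67, 9.42, 8.70 and 8.65 in STAC3 RNAi cells, against 7.76, 7.02, 7.31 and 7.15 in control cells, and rose by 1.80 (SE 0.20, limma adjusted p = 5.8e-06). The same 2 replicates were again the lower ones. Over the 49 glutathione, antioxidant and conjugation genes 11 rose and 10 fell (22.4% and 20.4%, against 19.9% and 17.8% of all genes). With STAC3 RNAi replicate 4 left out, 18 rose. Stmn2, a microtubule destabiliser best known from neurons, rose by 1.84 (SE 0.17, limma adjusted p = 1.13e-06), and Slit2, a guidance ligand, by 1.42 (SE 0.12, limma adjusted p = 4.39e-07). Among falls outside muscle, Serping1, the inhibitor of complement C1, fell by 1.94 (SE 0.09, limma adjusted p = 3.51e-09), and Tgm2, the tissue transglutaminase, by 1.77 (SE 0.16, limma adjusted p = 8.07e-07).

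Markers of myoblasts and of other cell types were checked in the same samples. Of 9 tested markers of C2C12 identity 8 fell, and Vcam1 rose by 0.44 (SE 0.15, limma adjusted p = 0.0383) with overlapping groups. Without STAC3 RNAi replicate 2, 3 or 4 or control replicate 2 or 4, Vcam1 differed by 0.33 to 0.43 and did not pass (limma adjusted p = 0.0657 to 0.126). The mean over the 10 such markers on the array was 9.93 to 10.23 in STAC3 RNAi cells, against 10.73 to 10.82 in control cells. Markers of endothelium and blood, Cdh5, Kdr and Ptprc, were below detection in all 8 samples. Hba-a1, an alpha globin, was the only tested member of a wider list of such markers. It was at 6.78 to 7.21 in STAC3 RNAi cells, against 7.49 to 8.02 in control cells. The fall was by 0.71 (SE 0.13, limma adjusted p = 0.000518) with STAC3 RNAi replicate 4 below detection. Of 5 tested fibroblast markers 3 rose: Pdgfra by 0.93 (SE 0.07, limma adjusted p = 2.33e-07), Dpt by 0.92 (SE 0.12, limma adjusted p = 4.06e-05) and Cd34 by 0.61 (SE 0.10, limma adjusted p = 0.000208). The other 2, S100a4 at -0.27 (SE 0.12, limma adjusted p = 0.113) and Pdgfrb at -0.10 (SE 0.09, limma adjusted p = 0.471), did not pass. Cd34, S100a4 and Pdgfrb were named after their values were seen. Fap was below detection in all 8 samples, and Dpt in control replicate 4. The mean over the 7 fibroblast markers on the array was 7.98 to 8.03 in STAC3 RNAi cells, against 7.65 to 7.75 in control cells, while their sum on the linear scale overlapped between groups, at 3050 to 3318 in STAC3 RNAi cells, against 2867 to 3777 in control cells. Smooth muscle markers had means of 9.05 to 9.38 in STAC3 RNAi cells, against 8.64 to 9.0 in control cells, and 2 of 5 tested rose, Acta2 by 0.76 (SE 0.16, limma adjusted p = 0.00194) and Actg2 by 1.07 (SE 0.31, limma adjusted p = 0.0153, or 0.0515 without control replicate 3). Of 3 tested adipocyte markers Lpl rose by 1.07 (SE 0.15, limma adjusted p = 6.98e-05) while Pparg differed by 0.21 (limma adjusted p = 0.306) and Cebpa by 0.17 (limma adjusted p = 0.0805), and Cebpa passed without control replicate 1 (0.24, limma adjusted p = 0.0149). None of 3 tested bone and cartilage markers passed. The plot of all lists uses wider ones for these cell types. In them 6 of 16 tested fibroblast markers rose and 1 fell, 3 of 10 adipocyte markers rose and 1 fell, 3 of 7 bone and cartilage markers rose and none fell, and 3 of 11 smooth muscle markers rose and 3 fell. Over all genes 19.9% rose and 17.8% fell. Without control replicate 3, 1 smooth muscle marker rose, and without any 1 of STAC3 RNAi replicates 2 to 4 or control replicates 1 to 3 no fibroblast marker fell. The part of other cell types in the results above was not tested.

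Where does day 1 differ from day 0? The change of the RNAi effect between days was tested in the same fit, and medium and time after transfection cannot be told apart in it. Of all genes 555 (5.47%) differed between days, and of the 196 genes changed at least 2-fold at day 1, 97 did, but these were chosen by day 1 values that the test also uses. By direction, 2.77% of genes were more positive and 2.7% more negative at day 1 than at day 0. Of probes 865 (4.7%) differed, 411 (2.23%) being more positive and 454 (2.47%) more negative. Without STAC3 RNAi replicate 2 the numbers of probes were 283 more positive and 272 more negative. Of the 3832 genes called at day 1, 1096 (28.6%) were also called at day 0 with the same sign, which is 73.6% of the 1489 day 0 calls (8.04% of genes higher and 6.63% lower), and 20 genes were called on both days with opposite signs. Of 44 tested replication genes 29 were higher in STAC3 RNAi cells at day 0 and 0 lower, with a median of 0.37. Of 49 tested mitosis genes 28 were higher at day 0 and 1 lower, with a median of 0.31. Pvalb differed by -3.57 and Fam180a by 2.24 between days on the log2 scale. Myog, Chrna1, Tnnt1, Mylpf and Tk1 did not pass the test of the difference between days.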

How the data were processed

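RNA of C2C12 cells was measured on 18 Illumina mouse bead arrays. The authors deposited normalized log2 values of 24538 probes, made with lumi per the submitters' processing notes (version not given in the sources used here), and a table of raw intensity with a detection p-value for 45281 probes per the file headers. Fold changes of dim probes are compressed in the log2 values: per unit of log2 intensity they moved by 0.962 to 1.06 among bright probes and by 0.545 to 0.793 among dim ones. Groups come from the sample labels. The 2 tables hold the same arrays, each column matching 1 other with a rank correlation of 1 and the next at 0.958 or less, but 12 of 18 names differ, and those of the value table were used. Detection p-values were linked through this match.

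Repeat arrays were averaged. Probes with a detection p below 0.01 on at least 3 arrays, 18408 in all, were fitted with limma 3.58.1 in R 4.3.3 over the 4 groups of RNAi and day, with Benjamini-Hochberg adjustment over these probes. Array annotation gave 1 symbol to 20685 probes, several to 8 and none to 3845. Each of 10146 genes is represented by its brightest tested probe. Named genes are the 15 largest rises and 15 largest falls without overlap, up to 4 rises and 4 falls of each of 49 gene lists, and a fixed set that includes Stac3, the myogenic factors and genes often used as references, and the text gives a selection of them. The members and lists were chosen with earlier results of these data known. Same-numbered samples correlated in their deviations from the group means with r = 0.392, -0.0541, 0.24 and 0.371. Samples of different numbers had r between -0.444 and 0.474. These values do not settle whether the numbers pair samples. The main fit did not pair them, and the replicate number as a block was an alternative. The number of arrays limits the precision. The fit was tested on simulated data. Alternatives covered the filter, normalization, variance model, repeat arrays, array set, replicate block, probe choice, samples left out and, added after seeing the data, the other column names put on the same log2 values.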

Additional observations from a re-analysis of the deposited data

Results flagged for a closer look

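In groups of 4 samples, 1 sample stood far from the other 3 in 18 of 296 tests over the named genes, where its gap to the nearest was large against the range of the group (Dixon's test). Chance alone marks about 1 in 20 groups. STAC3 RNAi replicate 4 accounted for 10 of them, each time as the highest sample of its group. In muscle genes these were Pvalb (7.42, the others 6.78 to 6.80), Tnnc2 (9.86, the others 8.57 to 8.65), Atp2a1 (9.24, the others 8.07 to 8.22), Mymk (7.78, the others 7.25 to 7.33), Csrp3 (7.11, the others 6.82 to 6.85), Agrn (9.94, the others 9.61 to 9.64) and Pgam2 (7.25, the others 6.81 to 6.85). The same sample was highest in Cdkn1c (9.02, the others 8.21 to 8.29), Cycs (11.00, the others 10.84 to 10.86) and Fst (7.24, the others 6.81 to 6.87). In Pvalb, Csrp3, Pgam2 and Fst the other 3 samples were below the detection level. Their narrow range may reflect the floor of the scale rather than agreement. STAC3 RNAi replicate 3 stood apart in Anln (10.55, the others 10.28 to 10.31). Control replicate 4 stood apart in Gja1 (10.42, the others 11.24 to 11.36), Neo1 (10.63, the others 10.29 to 10.32) and Mfap2 (6.80, the others 7.03 to 7.04). Control replicate 3 did so in Pdhb (9.97, the others all at 10.06), Bub1b (8.06, the others 7.71 to 7.76) and Timp1 (13.94, the others 13.44 to 13.53), and control replicate 1 in Cebpa (7.08, the others 6.81 to 6.85).

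The effect of the RNAi differed between days in 63 of 148 named genes by the limma test of the difference itself, given here as day 1 minus day 0 on the log2 scale. Over all genes the share was 5.47%, but the named genes were largely chosen by day 1 values that this test also uses, so their count is no result. It was more negative at day 1 in 37. Among muscle genes these were Pvalb (-3.57), Tnnc2 (-1.98), Mb (-1.76), Pgam2 (-1.71), Chrng (-1.64), Mymk (-1.58), Actn3 (-1.54), Tmem38a (-1.50), Ckm (-1.46), Klhl41 (-1.40), Srl (-1.38), Unc45b (-1.30), Adssl1 (-1.25), Hrc (-1.25), Csrp3 (-1.12), Chrnd (-1.01), Atp1b1 (-0.81) and Stac3 (-0.60). Among genes of metabolism and stress they were Fgf21 (-1.98), Psat1 (-0.98), Cycs (-0.92), Pdhb (-0.70), Pmaip1 (-0.67), Asns (-0.59), Mrpl53 (-0.50), Atp5pb (-0.48) and Gapdh (-0.39). The others were Serping1 (-1.50), Hey1 (-1.46), Itgb4 (-1.39), E2f1 (-1.33), Igfbp2 (-1.09), Tgm2 (-1.08), Cdkn1a (-0.80), E2f2 (-0.74), Heyl (-0.53) and Tgfbr1 (-0.38). E2f1 differed by -0.14 at day 1 and by 1.18 at day 0, and Hey1 by -0.76 at day 1 and 0.70 at day 0.

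It was more positive at day 1 in 26 genes. Those of division and the ribosome were H2ac10 (0.90), Cdc20 (0.79), Anln (0.75), Rpl22 (0.64), Bub1b (0.53) and Rps6 (0.42). Those of signalling and immunity were Igfbp4 (1.25), Slit2 (1.02), Egr2 (1.02), Rcan2 (0.98), Fstl1 (0.86), Pik3r1 (0.85), Egr1 (0.77), Ltbp4 (0.77), Psmb10 (0.75), Gbp2 (0.65), Cx3cl1 (0.61), Sfrp1 (0.60) and Pdgfra (0.43). The rest were Fam180a (2.24), Ugt1a10 (1.72), Mgst1 (1.49), Lpl (1.11), Acot1 (1.06), Mfap2 (1.00) and Dpt (0.91).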

How the results depend on the processing

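Leaving out 1 day 1 sample at a time gave 2599 to 3021 probes higher and 2569 to 2905 lower in STAC3 RNAi cells, 283 to 551 probes more positive and 272 to 533 more negative at day 1 than at day 0, and -0.98 to -0.83 for Stac3. Within the set of 6 arrays 914 probes were higher and 1015 lower, and 0 differed between days in either direction (limma, 1358 at an unadjusted p below 0.05), where day 0 has 1 STAC3 RNAi and 1 control array, so that this 0 says nothing about stability. With the column names of the intensity table, chosen after seeing the data, 0 probes passed in either comparison and Stac3 differed by -0.33 (limma adjusted p = 1). There 462 probes at day 1 and 1105 between days had an unadjusted p below 0.05 in limma. Over the mean of all probes of a gene, Tpm3 was -0.18 (limma adjusted p = 0.00759) and Kif23 0.25 (limma adjusted p = 0.00568), both opposite in sign to their brightest probe. Within the set of 12 arrays 2948 were higher and 2826 lower. With only the 8 day 1 samples 2479 probes were higher and 2447 lower, and Myod1, Vcam1, Tpm3, Chrnb1, Rb1, Fhl1 and Hey1 did not pass. The replicate number as a block gave 3225 probes higher and 3138 lower, with Vcam1 no longer and Cdkn1c newly past the threshold, and it changed no other call of a named gene; of the counts in lists, 5 moved by over 1.5 times, such as Wnt genes that fell (5). The filter, quantile normalization, median centring, the variance model, repeat arrays left out and the array set as a block kept the counts at day 1 between 2977 and 3357 higher and between 2822 and 3187 lower. Over the named genes and all settings except the other column names, which were run for Stac3 alone, 79 values fell short of the threshold, 9 newly passed and 2 reversed, against 2864 that kept their call. Dim probes near the detection level are compressed in these values.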
